A study of Arabidopsis thaliana with 4 samples.

Results

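The rows of the chloroplast and mitochondrial genomes were examined in RNA-seq libraries of Arabidopsis thaliana seedlings, as every row of the deposited gene count table whose ID starts with ATCG (chloroplast) or ATMG (mitochondrial). There were 279 such rows among 33610, of which 133 were chloroplast and 146 were mitochondrial. The seedlings were of the Col0 ecotype, 2 weeks old and grown on half-strength MS medium. They were wild type or carried a mutation in lincRNA11195, a long intergenic noncoding RNA, and were either untreated or exposed to abscisic acid (ABA), the drought hormone of plants, for 12 h. The 4 groups were therefore untreated wild type, wild type under ABA, untreated mutant and mutant under ABA, each with 3 biological replicates in 12 libraries. The sources used here name neither the kind of mutation nor how many independent lines carried it.

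Chloroplasts and mitochondria keep small genomes of their own, which encode part of the photosynthetic and respiratory complexes together with ribosomal RNAs, transfer RNAs and some ribosomal proteins. The chloroplast genome is read by a bacterial-type RNA polymerase, whose core it encodes itself and whose sigma factors come from the nucleus, and by a nuclear-encoded polymerase of the phage type; mitochondria use the phage type. Organelle transcripts carry no stable poly(A) tail, and the short tails that are added to them mark RNA for decay, so a library made from poly(A) RNA, as the kit named in the labels makes, samples organelle RNA poorly and unevenly. A fall in such a library cannot tell fewer transcripts from fewer tailed ones, and in whole seedlings fewer cells of a type and less RNA per cell cannot be told apart.

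Library totals ran from 14691544 counts (untreated mutant replicate 1) to 22477294 counts (untreated mutant replicate 3). Of these, 6326 to 22254 counts per library lay in chloroplast rows and 498 to 1465 in mitochondrial rows. Over the 12 libraries, 85 of the 133 chloroplast rows had at least 100 counts, 43 had 1 to 99 and 5 had none. Of the 146 mitochondrial rows, 13 had at least 100 counts, 104 had 1 to 99 and 29 had none. After the filter on low counts, 88 chloroplast and 17 mitochondrial rows were tested. The 45 chloroplast rows left out held 0.591% of that genome's counts, and the 129 mitochondrial rows left out held 17.7%. A count of 3 in a library was worth 0.129 to 0.185 CPM, the library's counts brought to a common total with edgeR's TMM factors.

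Most of the rows can be given only by their ID. The RefSeq annotation used here names organelle genes under other identifiers and shares none with the table, so that gene lengths were not used and levels were not compared between rows. Its notes on nuclear genes describe 6 of the chloroplast IDs and 45 of the mitochondrial ones, 21 of the latter only as unknown proteins. The described chloroplast IDs are ATCG00430 (noted as photosystem II reaction center protein G), ATCG00530 (related to the CemA proton extrusion protein), ATCG00670 (the plastid-encoded CLP P, the proteolytic subunit of the stromal Clp protease) and 3 ribosomal proteins, L20 (ATCG00660), S11 (ATCG00750) and L2 (ATCG01310). Each description is taken from a note on a nuclear gene (AT5G11770 for ATCG00430) and was not checked, so ATCG00430 is given below by its ID. The described mitochondrial IDs that were tested are subunits of the ATP synthase (ATMG01190, ATMG01080, ATMG00480 and ATMG00410), a cytochrome b/b6 protein (ATMG00590) and ribosomal protein L5 (ATMG00210).

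Several rows did not carry independent counts. Among chloroplast rows, 9 pairs with at least 100 counts held nearly the same count in every library (within 2% or 3 counts), and no mitochondrial pair did. The pair ATCG00950 and ATCG01180 held 25203 and 25213 counts in all, with a largest difference of 3 counts in any library. The pair ATCG00920 and ATCG01210 held 9272 and 9291, with a largest difference of 8. The pair ATCG00960 and ATCG01170 had equal counts in all 12 libraries. The treatment of reads that match several places was not given in the sources used here. Each pair is 1 measurement and is described below by 1 of its rows. Counts and medians over rows hold both rows of each pair unless stated otherwise.

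Some mitochondrial rows matched a nuclear row in the same way. ATMG01080 (F0-ATPase subunit 9) held 379 counts and the nuclear row that the annotation notes as its protein match, AT2G07671, held 384, with a largest difference of 3 counts in any library. ATMG00480 (F0 subunit 8) held 111 and its noted match AT2G07707 held 96. ATMG00210 (ribosomal protein L5) held 87 and its noted match AT2G07725 held 76, also with a largest difference of 3 counts. For these, mitochondrial and nuclear transcripts cannot be told apart. The same tolerance also matched 3 tested rows to nuclear rows with no such note, each with few counts (ATCG00500, ATMG00080 and ATMG01360), so at low counts it says little. In some other noted pairs the counts differed more, as for ATMG01190 (ATP synthase subunit 1), which held 375 counts against 512 for AT2G07698. These 2 rows still ran parallel. In untreated wild type, wild type under ABA, untreated mutant and mutant under ABA, ATMG01190 held 63, 141, 82 and 89 counts. AT2G07698 held 87, 185, 125 and 115. ATMG00410 held 120 counts and its noted match AT2G07741 held 106, equal in 7 of 12 libraries. Whether such rows share reads was not tested.

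The chloroplast total was highest in untreated wild type. Chloroplast rows took 0.103%, 0.0801% and 0.122% of all counts in the 3 untreated wild-type libraries and 0.0440%, 0.0499% and 0.0448% in those under ABA. The share was 0.0718%, 0.0480% and 0.0680% in the untreated mutant and 0.0494%, 0.0562% and 0.0351% in the mutant under ABA. All 3 untreated wild-type libraries lay above the other 9 by this sum, which holds both rows of each near-equal pair. With 1 row per pair the shares were 0.0619%, 0.0479% and 0.0728% in untreated wild type, 0.0355% to 0.0403% in wild type under ABA, 0.0410% to 0.0655% in the untreated mutant and 0.0306% to 0.0520% in the mutant under ABA. Untreated wild type then lay above wild type under ABA but overlapped both mutant groups.

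The rows with the most counts in untreated wild type were set apart from the rest. Since they were picked after their values were seen and by that group's own counts, their lower sums elsewhere describe the choice and support nothing. The sums of the rows left over rest on the same choice, so their order between groups supports nothing either. The 4 rows of the 2 largest pairs took 78.3%, 78.9% and 78.9% of chloroplast counts in untreated wild type, and between 9.59% and 45.9% in every other library. Together these rows held 901 ± 159 CPM (SD, n = 3) in untreated wild type and 142 ± 35.7 under ABA. The remaining 129 rows summed to 244 ± 43.1 CPM in untreated wild type (197 to 282), 313 ± 13.1 in wild type under ABA (298 to 323) and 425 ± 118 in the untreated mutant (346 to 560). For these remaining rows, which depend on that choice, every library of the latter 2 groups lay above every untreated wild-type library. In the mutant under ABA they summed to 393, 465 and 266 CPM, which overlapped all 3 other groups.

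**Figure D1:**
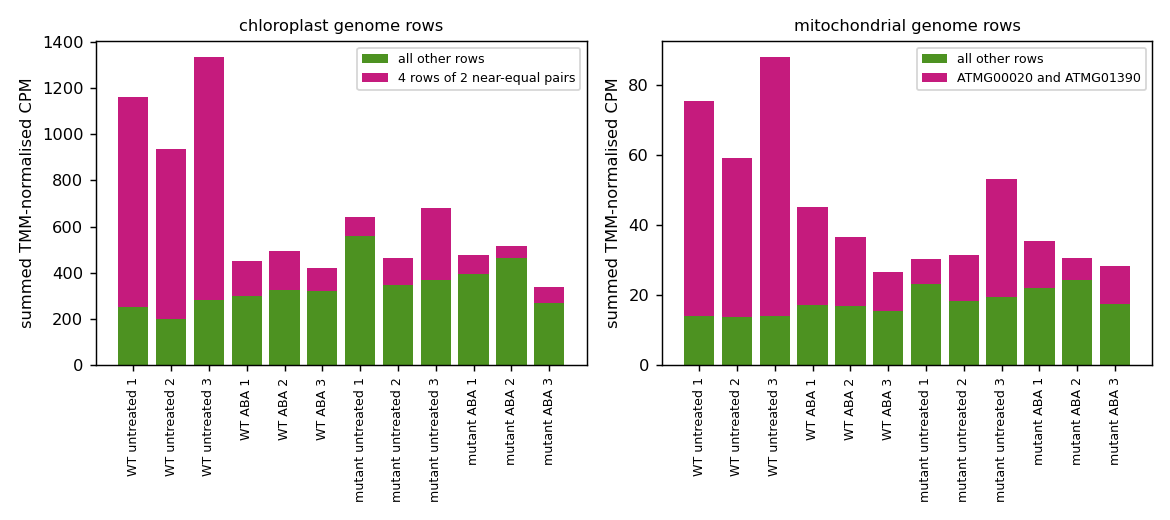
Summed TMM-normalised CPM of the chloroplast (left) and mitochondrial (right) rows in each of the 12 libraries (bars start at 0; WT is wild type). Magenta marks the rows with the most counts in untreated wild type, which are the 4 rows of 2 near-equal pairs on the left (each read may stand in both rows of a pair) and ATMG00020 with ATMG01390 on the right. Green marks all other rows, which on the left are higher in every wild-type ABA and untreated mutant library than in untreated wild type, while mutant ABA replicate 3 (266 CPM) lies below wild type untreated replicate 3 (282 CPM). Both colours rest on a choice made from the untreated wild-type counts, so their order between groups supports nothing.

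The mitochondrial rows were split by the same choice. ATMG00020 and ATMG01390 together held 61.6, 45.6 and 74.0 CPM in untreated wild type and 28.0, 19.7 and 11.4 under ABA. They held 7.12, 13.1 and 33.8 CPM in the untreated mutant and 13.3, 6.46 and 10.6 in the mutant under ABA. The other 144 mitochondrial rows summed to 13.8 ± 0.170 CPM in untreated wild type, 16.4 ± 0.979 in wild type under ABA, 20.2 ± 2.60 in the untreated mutant and 21.2 ± 3.40 in the mutant under ABA. Each of the latter 3 groups lay wholly above untreated wild type, but this order rests on the choice of the rows set apart and supports nothing. With no row set apart, the mitochondrial rows summed on average to 74.2 CPM in untreated wild type and 36.0 in wild type under ABA. The untreated mutant then had 38.2 CPM and the mutant under ABA 31.3.

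The first comparison asked how organelle rows responded to ABA in wild type. The 2 largest chloroplast pairs fell steeply while most other chloroplast rows had small positive fold changes, few of which passed the test. Of the 88 rows tested, 5 rose and 5 fell by edgeR's quasi-likelihood test (adjusted p under 0.05), against 53.4% of all 21322 genes tested that were called in this comparison, 25.2% higher and 28.2% lower. The fold change was positive for 69 rows and negative for 19, with a median log2 fold change of 0.43 where all genes had -0.03. The 3 libraries of each group did not overlap for 20 higher rows and 7 lower ones, against 30.3% and 32.3% of all genes. Both shares of called rows were thus below the background. With 1 row per near-equal pair, 7 of 79 rows were called.

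ATCG00920 stood at 141, 120 and 147 CPM in untreated wild type and at 17.6, 19.0 and 9.68 under ABA. The groups were far apart, with a log2 fold change of -3.14 ± 0.41 (SE, adjusted p = 5.13e-05). ATCG00950 stood at 314, 249 and 381 CPM untreated and at 59.0, 66.6 and 41.6 under ABA, again without overlap, and its log2 fold change was -2.50 ± 0.42 (adjusted p = 0.000339). The fifth row that fell, ATCG01190, had only 131 counts in all; its log2 fold change was -1.92 ± 0.75 (adjusted p = 0.0451), while its near-equal partner ATCG00940 missed the threshold (adjusted p = 0.0502).

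**Figure D2:**
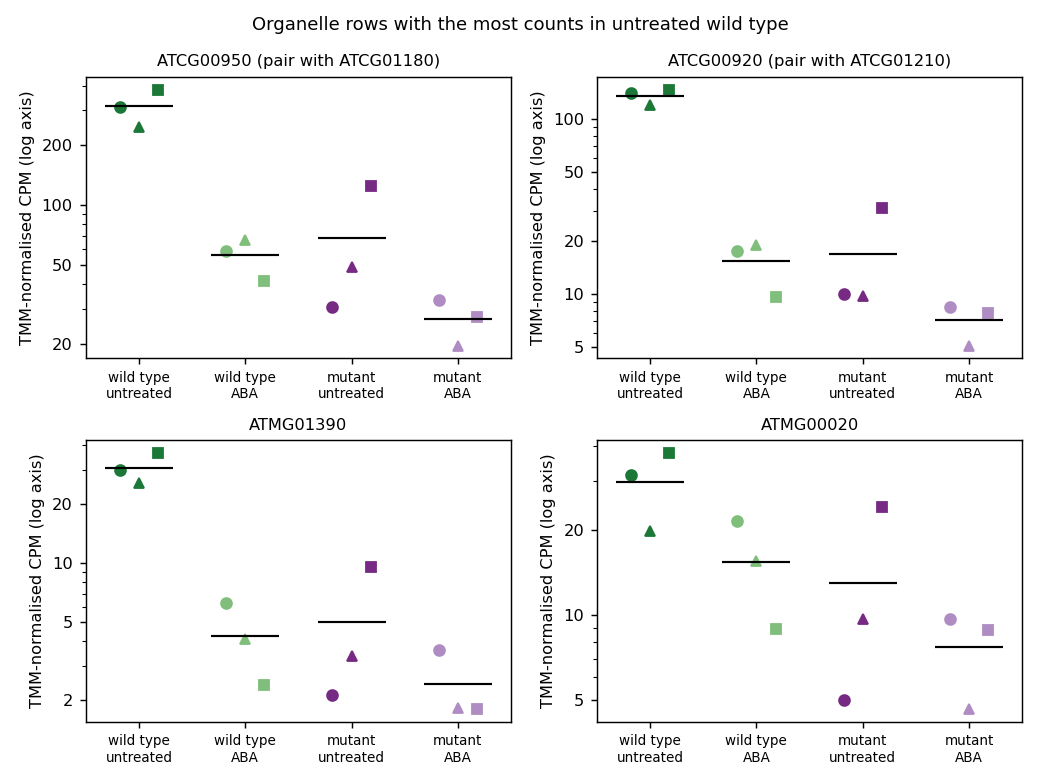
TMM-normalised CPM (log axis) in each library for ATCG00950, ATCG00920, ATMG01390 and ATMG00020, by group; circles, triangles and squares are replicates 1, 2 and 3 and black lines are group means. For the first 3 rows the untreated wild-type libraries lie above all others, and among the untreated mutant libraries replicate 3 is the highest in every panel (125 CPM for ATCG00950 against 30.7 and 48.5).

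ATCG00020 rose from 6.30, 6.77 and 7.75 CPM to 11.3, 10.9 and 11.9, with no overlap and a log2 fold change of 0.71 ± 0.18 (adjusted p = 0.00424). ATCG00070 rose from 1.52, 1.48 and 1.5 CPM to 3.01, 3.01 and 3.44, also without overlap (1.07 ± 0.32 on the log2 scale, adjusted p = 0.0125). The row of the Clp protease subunit, ATCG00670, rose from 3.91, 2.83 and 3.12 CPM to 5.57, 3.87 and 5.94. Its groups overlapped by 1 library, and the log2 fold change was 0.64 ± 0.25 (adjusted p = 0.0431). The other rises were ATCG00630 (0.67 ± 0.27, adjusted p = 0.0487) and ATCG00300 (1.43 ± 0.57, adjusted p = 0.0492).

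The called rows differed in how firmly they held. The 4 rows of the 2 largest pairs, ATCG00020 and ATCG00070 passed in each of the 18 other fits tried, which included leaving out each library in turn. ATCG00670 missed the threshold in 6 of them, among these the fits without either of the libraries wild type untreated 2 and 3 or wild type ABA 1 and 3 (adjusted p 0.103 to 0.129). ATCG00630 missed it in 7 fits, each of which left out 1 library, among them each wild-type ABA library. ATCG01190 missed it in 7, including those without wild type untreated 2 or 3 or wild type ABA 1 or 3, and ATCG00300 in 11 of 17, including those without replicate 2 or 3 of either wild-type group.

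Among the chloroplast rows with a description and no call, ATCG00430 stood at 1.05, 0.80 and 0.781 CPM untreated and 1.43, 1.24 and 1.42 under ABA. These groups did not overlap (log2 0.63 ± 0.31, adjusted p = 0.10). Ribosomal proteins L2, L20 and S11 had log2 fold changes of 0.17 ± 0.16, 0.67 ± 0.44 and -0.05 ± 0.41, none past the threshold (adjusted p 0.388, 0.212 and 0.923). The CemA-related row ATCG00530 had 0.43 ± 0.32 (adjusted p = 0.271).

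Of the 17 mitochondrial rows tested, 2 rose and 1 fell with ABA in wild type, that is 17.6% called against 53.4% of all genes. ATMG01390 stood at 30.0, 25.6 and 36.4 CPM untreated and at 6.26, 4.11 and 2.41 under ABA, without overlap. Its log2 fold change was -2.85 ± 0.47 (adjusted p = 0.000302), and it passed in all 18 other fits. ATMG00020, the mitochondrial row with the most counts, stood at 31.5, 19.9 and 37.7 CPM untreated and 21.7, 15.6 and 8.95 under ABA. These groups overlapped and the change missed the threshold (log2 -0.95 ± 0.48, adjusted p = 0.112).

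Subunit 1 of the mitochondrial ATP synthase (ATMG01190), part of the catalytic head of the enzyme, rose from 1.17, 1.05 and 1.56 CPM to 2.71, 2.49 and 1.46, with overlap through the last library. The log2 fold change was 0.81 ± 0.31 (adjusted p = 0.0393), and 6 of 18 other fits lost the call, including those without wild type ABA replicate 1 (0.64, adjusted p = 0.134) or replicate 2 (0.72, adjusted p = 0.112). The same call was lost without wild type untreated replicate 1 (0.76, adjusted p = 0.104) or replicate 2 (0.74, adjusted p = 0.0995). ATMG00160, which has no description, rose from 0.117, 0.369 and 0 CPM to 0.690, 0.669 and 0.516 (log2 1.92 ± 0.66, adjusted p = 0.0257), and the call was lost without wild type untreated replicate 1 or 3 or wild type ABA replicate 1 or 2 (adjusted p 0.0583 to 0.0811). The other ATP synthase rows were not called: subunit 9 (ATMG01080) had 0.67 ± 0.33 (adjusted p = 0.109), subunit 8 (ATMG00480) 0.57 ± 0.48 (adjusted p = 0.337) and subunit 6-1 (ATMG00410) 1.0 ± 0.59 (adjusted p = 0.170).

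**Figure D3:**
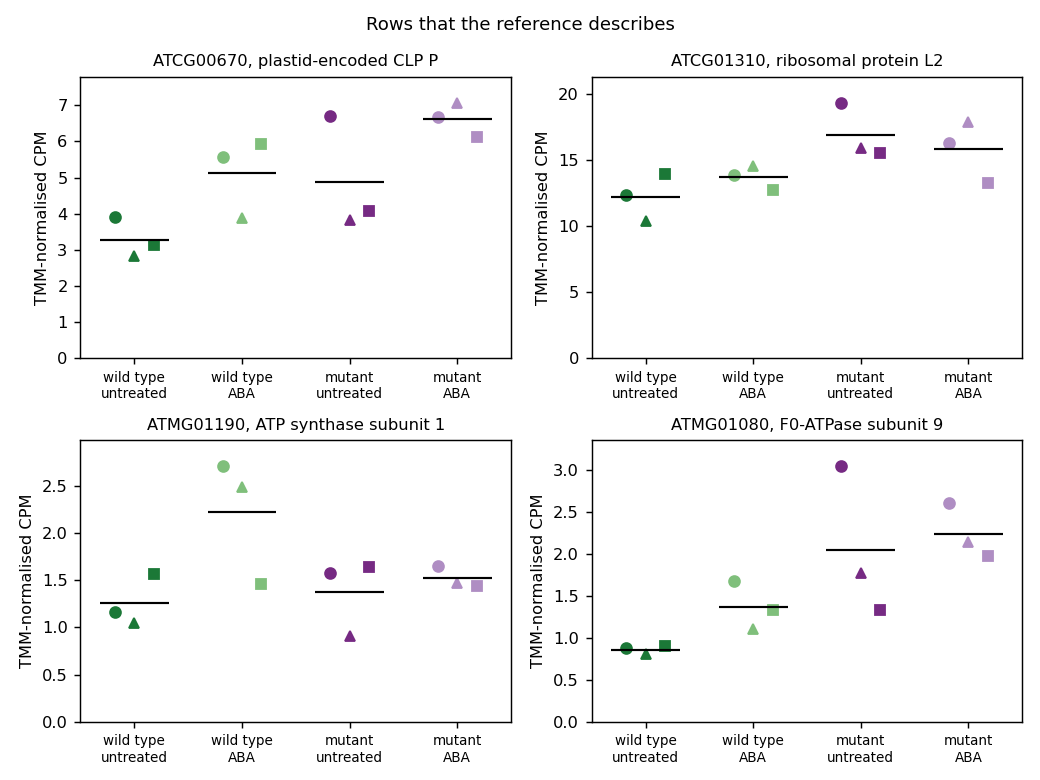
TMM-normalised CPM in each library for 4 described rows, the chloroplast CLP P subunit and ribosomal protein L2 and the mitochondrial ATP synthase subunits 1 and 9; circles, triangles and squares are replicates 1, 2 and 3 and black lines are group means. Untreated mutant replicate 1 is the highest of its group for ATCG00670 (6.69 CPM), ATCG01310 (19.3) and ATMG01080 (3.04).

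The second comparison asked the same in the mutant. The 2 largest chloroplast pairs fell here too, and no row rose. Of the 88 chloroplast rows, 7 fell by edgeR's test, against 42.5% of all genes called in this comparison (21.5% higher and 21.1% lower). With 1 row per near-equal pair, 4 of 79 rows were called. Positive and negative folds numbered 31 and 57, with a median log2 fold change of -0.11 where all genes had 0.00. The sign of that median turned on 1 library: it was 0.15 without untreated mutant replicate 1, 0.04 without mutant ABA replicate 3, and -0.26, -0.22 and -0.35 without untreated mutant replicate 2, untreated mutant replicate 3 and mutant ABA replicate 2. No row had 3 mutant ABA libraries wholly above the untreated ones, and 7 rows had them wholly below, against 25.8% and 24.4% of all genes.

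ATCG00920 stood at 10.04, 9.82 and 31.1 CPM in the untreated mutant and 8.42, 5.09 and 7.82 under ABA, a log2 fold change of -1.26 ± 0.41 (adjusted p = 0.0245). ATCG00950 stood at 30.7, 48.5 and 125 CPM and at 33.4, 19.6 and 27.2, which overlapped (-1.35 ± 0.41, adjusted p = 0.0188). Untreated mutant replicate 3 was the highest library of its group in both. Without it the log2 fold changes became -0.48 (adjusted p = 0.200) and -0.57 (adjusted p = 0.142), and without mutant ABA replicate 2 they were -1.07 (adjusted p = 0.0921) and -1.17 (adjusted p = 0.0737).

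The remaining falls were the low pair ATCG01190 and ATCG00940 (-2.33 ± 0.77, adjusted p = 0.0267, and -2.31 ± 0.78, adjusted p = 0.0294) and ATCG00490. ATCG00490 stood at 12.2, 8.39 and 10.3 CPM untreated and 7.92, 6.61 and 6.07 under ABA, without overlap (-0.58 ± 0.17, adjusted p = 0.0163). Its level in wild type was 8.03 ± 0.461 CPM untreated and 8.02 ± 0.951 under ABA. The call for ATCG00490 was lost without untreated mutant replicate 1 (-0.44, adjusted p = 0.0562) and without mutant ABA replicate 2 (adjusted p = 0.0529) or 3 (adjusted p = 0.0552). ATCG01190 lost its call without untreated mutant replicate 3 (adjusted p = 0.136) or mutant ABA replicate 2 (0.0832) or 3 (0.0526).

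The number of chloroplast calls in the mutant rested on single libraries. It was 1 without untreated mutant replicate 3, 1 without mutant ABA replicate 2 and 4 without mutant ABA replicate 3. Without untreated mutant replicate 1 it was 14, of which 8 were rises, among them ATCG00670 (0.74, adjusted p = 0.0166) and ATCG00530 (0.85, adjusted p = 0.0219). Over all genes, 4580 were called higher and 4490 lower with all libraries. These were 4685 and 4602 without untreated mutant replicate 1, and 3690 and 3538 without untreated mutant replicate 3. Without mutant ABA replicate 2 they were 3861 and 3442, and without mutant ABA replicate 3 they were 4448 and 4580.

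No mitochondrial row of the 17 tested was called with ABA in the mutant by edgeR, against 42.5% of all genes. Of these rows 0 had an unadjusted p under 0.05, and DESeq2 called 0. ATMG01390 stood at 2.13, 3.39 and 9.55 CPM untreated and 3.61, 1.83 and 1.81 under ABA (-1.07 ± 0.50, adjusted p = 0.103). The median over the 17 rows was -0.14, but 0.01 without untreated mutant replicate 1 and 0.00 without mutant ABA replicate 3; it was -0.22 without mutant ABA replicate 2 and -0.09 without untreated mutant replicate 2 or mutant ABA replicate 1.

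**Figure D4:**
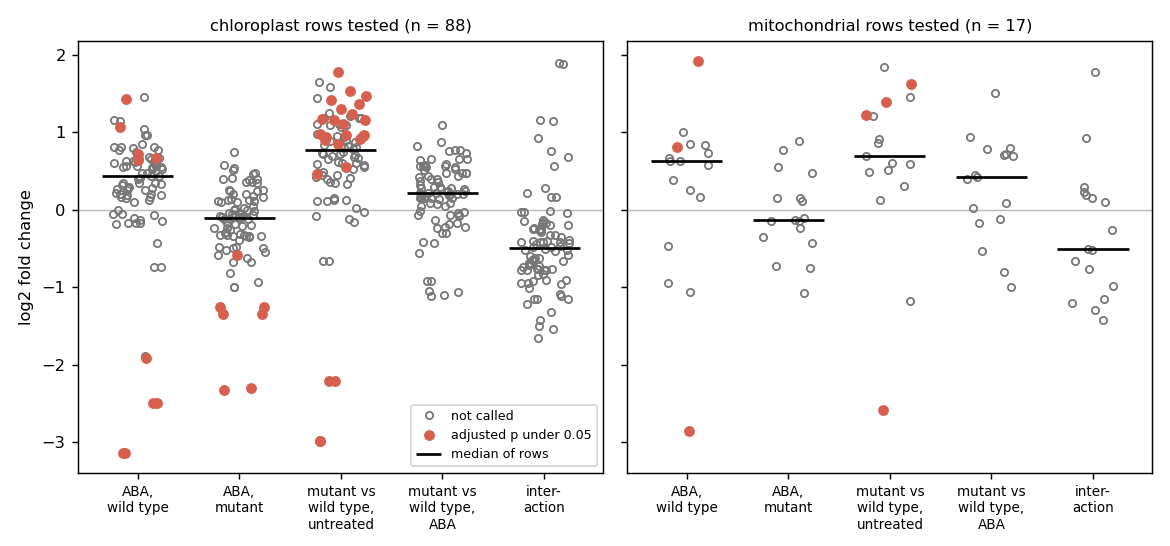
Log2 fold changes of the 88 chloroplast and 17 mitochondrial rows tested, in the 5 comparisons; filled red points passed an adjusted p of 0.05 in edgeR's test over all genes, black lines are medians over the rows and points are spread sideways only to separate them. The chloroplast median is 0.43 with ABA in wild type, -0.11 with ABA in the mutant (0.15 without untreated mutant replicate 1) and 0.76 for the untreated mutant against wild type; comparisons that share a group are not independent.

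The third comparison set the untreated mutant against untreated wild type, and here most calls were rises. The 2 largest chloroplast pairs were lower in the mutant, and rows across the rest of the chloroplast genome were higher. Of 88 rows, 21 rose and 4 fell, that is 28.4% called, against 23.6% of all genes, 8.77% higher and 14.8% lower. With 1 row per near-equal pair, 22 of 79 rows were called. The fold change was positive for 78 rows and negative for 10, with a median log2 fold change of 0.76 where all genes had 0.01. The mutant libraries lay wholly above wild type for 41 rows and wholly below for 4, against 21.3% and 23.9% of all genes.

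The count of rises rested strongly on 1 library. Untreated mutant replicate 1, which had the fewest counts of all 12, was also the highest in summed CPM of the remaining chloroplast rows (560 against 346 and 368). Without it, 1 chloroplast row rose and 4 fell, and the median log2 fold change was 0.48 with 75 of 88 folds positive. Calls over all genes fell too. That fit called 893 higher and 1927 lower of 21489 genes, against 1869 and 3153 of 21322 with all libraries. Without untreated mutant replicate 3 there were 31 calls of 90 rows tested, and without wild type untreated replicate 1 or 2 there were 11 or 9. Over all genes, the fit without untreated mutant replicate 3 called 2225 higher and 3443 lower. Without wild type untreated replicate 1 these were 1046 and 2196, and without replicate 2 they were 1347 and 1974.

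The 4 falls were the 2 largest pairs. ATCG00920 had a log2 fold change of -2.99 ± 0.41 (adjusted p = 0.000319) and ATCG00950 of -2.21 ± 0.42 (adjusted p = 0.00272). In both, all 3 mutant libraries lay below all 3 wild-type libraries, the nearest being untreated mutant replicate 3, and all 18 other fits kept the calls.

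The rise with the smallest adjusted p was in ATCG01130, at 0.991, 1.05 and 0.781 CPM in wild type and 4.14, 2.38 and 1.78 in the mutant (1.53 ± 0.39, adjusted p = 0.0142). It was followed by ATCG00040 (1.29 ± 0.33, adjusted p = 0.0151), ATCG00450 (1.36 ± 0.37, adjusted p = 0.0193) and ATCG00070 (1.16 ± 0.32, adjusted p = 0.0211). ATCG00150 (1.42 ± 0.39, adjusted p = 0.0213) and ATCG00480 (0.55 ± 0.16, adjusted p = 0.0250) came next. In each of the 6 rows the 3 mutant libraries lay above the 3 wild-type ones. Without untreated mutant replicate 1, ATCG00040 alone of these 6 stayed past the threshold, and ATCG00040 was lost without wild type untreated replicate 2 (adjusted p = 0.0552). ATCG00070 had 0.73 (adjusted p = 0.0924) without untreated mutant replicate 1 and was also lost without any 1 of the untreated wild-type libraries. ATCG00150 was lost without wild type untreated replicate 1 or 2, ATCG00450 without 1 or 3 and ATCG00480 without 2.

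Of the described chloroplast rows, ribosomal protein L2 (ATCG01310) was called. It stood at 12.4, 10.4 and 13.9 CPM in wild type and 19.3, 15.9 and 15.5 in the mutant, which did not overlap, with a log2 fold change of 0.46 ± 0.16 (adjusted p = 0.0498), and 12 of 18 other fits lost the call, 9 of them by leaving out 1 library. The row ATCG00830 ran parallel to ATCG01310 over the libraries, with 3061 counts against 3423 in all. It lay outside the tolerance for a pair and was not called. Whether the 2 rows share reads was not tested. ATCG00430 was just past the other side of the threshold (0.89 ± 0.30, adjusted p = 0.0503), and L20 had 1.18 ± 0.42 (adjusted p = 0.0593). The Clp subunit had 0.55 ± 0.25 (adjusted p = 0.122), the CemA-related row 0.57 ± 0.32 (adjusted p = 0.207) and S11 0.47 ± 0.39 (adjusted p = 0.398).

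In the run ATCG00120 to ATCG00190, picked after its values were seen, 7 of 8 rows had mutant libraries wholly above wild type. This held for 41 of all 88 chloroplast rows tested and 21.3% of all genes, so the trait was not particular to the run. Their log2 fold changes ran from 0.94 (ATCG00120) to 1.47 (ATCG00160). Of the 8 rows 4 were called, against 21 of the 88 chloroplast rows and 8.77% of all genes called higher. ATCG00190, the row with the most counts in the run, stood at 49.4, 29.5 and 45.5 CPM in wild type and at 108, 67.2 and 66.8 in the mutant (0.96 ± 0.29, adjusted p = 0.0299). The exception was ATCG00140 with -0.08 ± 0.25 (adjusted p = 0.836). Without untreated mutant replicate 1 the 7 folds were 0.69 to 1.19.

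**Figure D5:**
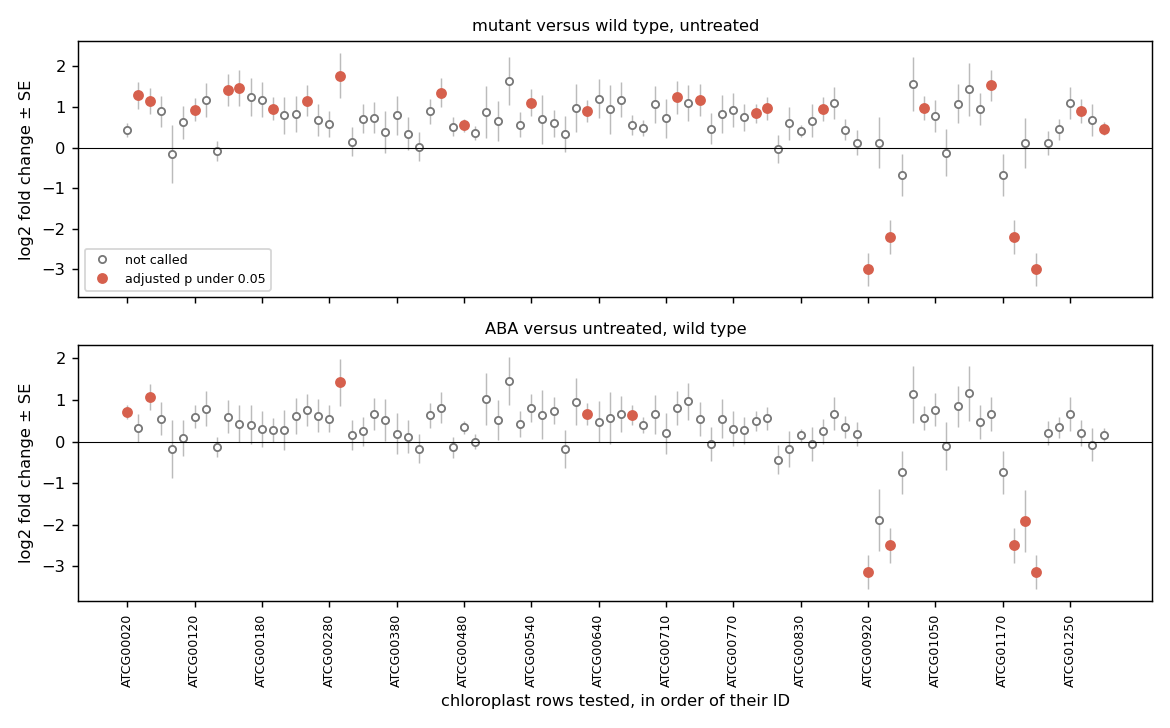
Log2 fold change ± SE of the 88 chloroplast rows tested, placed in order of their ID with every sixth ID printed, for untreated mutant against untreated wild type (top) and ABA against untreated in wild type (bottom); red points passed an adjusted p of 0.05. The low points at the right are the near-equal pairs ATCG00920 with ATCG01210 and ATCG00950 with ATCG01180; both panels use the same untreated wild-type libraries.

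Of the 17 mitochondrial rows tested, 3 were higher and 1 lower in the untreated mutant, that is 23.5% called, at the background of 23.6% of all genes. Subunit 9 of the F0 part of the ATP synthase (ATMG01080), which forms the proton-conducting ring, stood at 0.875, 0.80 and 0.901 CPM in wild type and 3.04, 1.76 and 1.33 in the mutant (1.22 ± 0.33, adjusted p = 0.0180). Its groups did not overlap, and it is the row whose counts lay within 3 of those of nuclear AT2G07671 in every library. Subunit 8 (ATMG00480) rose from 0.466, 0.246 and 0.120 CPM to 0.791, 0.858 and 0.577 (1.38 ± 0.45, adjusted p = 0.0420) and lost the call in 10 of 18 other fits, including those without untreated mutant replicate 1 or 2 or wild type untreated replicate 2 or 3.

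ATMG00070, with no description, was higher in the mutant by 1.63 ± 0.49 (adjusted p = 0.0301) at 0.869 ± 0.366 CPM. ATMG01390 was lower by a log2 fold change of -2.59 ± 0.47 (adjusted p = 0.00207), which held in all 18 other fits. ATMG00020 stood at 4.99, 9.68 and 24.2 CPM in the untreated mutant, overlapped wild type and missed the threshold (-1.19 ± 0.48, adjusted p = 0.0909). ATP synthase subunit 1 had 0.12 ± 0.32 (adjusted p = 0.799). The call for ATMG01080 was lost without untreated mutant replicate 1 (0.84, adjusted p = 0.0767) and without wild type untreated replicate 1 (adjusted p = 0.0533) or 2 (adjusted p = 0.0521). ATMG00070 lost its call without untreated mutant replicate 2 (adjusted p = 0.108) or wild type untreated replicate 1 (0.107) or 2 (0.0906).

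The comparisons of ABA in wild type and of the untreated mutant share the 3 untreated wild-type libraries, so that their folds for 1 row are linked. Under ABA few genes of any kind were called between mutant and wild type by edgeR, 1.79% of all genes, 1.61% higher and 0.178% lower. No chloroplast or mitochondrial row was called, with 7 and 3 rows at an unadjusted p under 0.05 and 0 calls by DESeq2. At so low a share over all genes, 0 calls among 88 and 17 rows say little. The mutant libraries lay wholly above wild type for 10 chloroplast rows and wholly below for 7, against 10.7% and 8.71% of all genes. The median log2 fold change was 0.21 over chloroplast rows, 0.07 without mutant ABA replicate 2 and 0.41 without mutant ABA replicate 3. Over mitochondrial rows it was 0.42, and 0.27 without mutant ABA replicate 2. ATCG00920 had -1.12 ± 0.41 (adjusted p = 0.261) and its libraries did not overlap between genotypes. Without untreated mutant replicate 3, ATCG00920 and its partner ATCG01210 were called (adjusted p = 0.0420 and 0.0449).

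Whether the response to ABA differed between genotypes was tested as an interaction, where a positive value means a less negative or more positive fold in the mutant. No organelle row passed by edgeR, against 1.80% of all genes, 1.66% higher and 0.141% lower. At so low a share, the absence of calls among these rows says little. An unadjusted p under 0.05 was reached by 9 chloroplast rows and 1 mitochondrial row. DESeq2 called 2 chloroplast rows, which were the pair ATCG00920 (1.86, adjusted p = 0.0291) and ATCG01210, and no mitochondrial row. In edgeR's test ATCG00920 had an interaction of 1.88 ± 0.56 (adjusted p = 0.132), ATCG00950 of 1.15 ± 0.57 (adjusted p = 0.457) and ATMG01390 of 1.78 ± 0.68 (adjusted p = 0.283). Without untreated mutant replicate 3 the pairs of ATCG00920 (2.66, adjusted p = 0.00500) and ATCG00950 (1.93, adjusted p = 0.0273) and ATMG01390 (2.65, adjusted p = 0.0282) were called. No organelle row was called when any other single library was left out. Of the 88 chloroplast interactions 76 were negative and 12 positive, with a median of -0.50 where all genes had -0.01. Without untreated mutant replicate 1 the median was -0.34, and 29 of 88 were positive.

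Other measures moved with the falling rows. The 4 nuclear rows annotated as ribosomal RNA made up 0.108% to 0.148% of an untreated wild-type library, 0.0676% to 0.0830% in wild type under ABA, 0.0614% to 0.0836% in the untreated mutant and 0.0473% to 0.0577% in the mutant under ABA. Among the untreated mutant libraries replicate 3 was the highest here too. All 3 shoot markers were likewise highest in untreated wild type: CAB1, a chlorophyll-binding antenna protein, had 3831 to 6328 CPM there, 581 to 881 in wild type under ABA, 201 to 597 in the untreated mutant and 198 to 400 in the mutant under ABA. RBCS1A ran from 15939 to 19946 CPM in untreated wild type and from 2726 to 7318 over the other groups, and LHCB6 from 243 to 460 and from 16.4 to 34.4. The part of either measure in the organelle results was not tested. Of the 4 root markers, CASP1 (13.5 to 21.6 CPM in untreated wild type, 1.32 to 7.55 elsewhere) was also highest in untreated wild type, while EXPA7 and PYK10 overlapped between groups. SHV2 had 6.30 to 9.97 CPM in untreated wild type, lay wholly below this under ABA in wild type (3.20 to 3.91) and in the mutant (1.12 to 2.07), and overlapped it in the untreated mutant (1.40 to 6.57). All 7 markers were detected in every group.

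The organelle genomes depend on nuclear genes for transcription and RNA decay, and 28 of these were listed and all tested. With ABA in wild type 3 rose and 16 fell, where 25.2% of all genes were called higher and 28.2% lower, with a median log2 fold change of -0.54 against -0.03 for all genes. In the mutant 1 rose and 19 fell, where 21.5% of all genes were called higher and 21.1% lower, with a median of -0.63 against 0.00. Proteins associated with the plastid RNA polymerase fell in 9 of 12 cases in each genotype and none rose. FLN1, a fructokinase-like member of that complex, had -1.31 ± 0.21 (adjusted p = 0.000195) in wild type and -1.27 ± 0.21 (adjusted p = 0.000371) in the mutant. TRX z, its thioredoxin, had -1.31 ± 0.18 (adjusted p = 7.05e-05) and -0.92 ± 0.18 (adjusted p = 0.00139).

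The phage-type polymerases fell in 2 of 3 cases in wild type and in 3 of 3 in the mutant. Of all genes, 28.2% were called lower in wild type and 21.1% in the mutant. SCA3, the plastid enzyme, had -0.60 ± 0.14 in wild type (adjusted p = 0.00318) and -1.16 ± 0.14 in the mutant (adjusted p = 4.50e-05). RNA decay genes fell in 5 of 7 cases in each genotype, led by AT5G14580, a mitochondrial polynucleotide phosphorylase, at -1.75 ± 0.23 (adjusted p = 4.93e-05) and -1.85 ± 0.23 (adjusted p = 4.86e-05). Of the 6 sigma factors, 3 rose in wild type (SIGA, SIGC and SIGE) and 3 were not called, SIG2 at -0.31, SIG4 at 0.13 and SIGF at -0.13. SIGE rose most, from 20.5 ± 10.6 to 71.9 ± 13.7 CPM (1.81 ± 0.38, adjusted p = 0.00144), and also rose in the mutant (1.35 ± 0.37, adjusted p = 0.0107), where SIG2 and SIGF fell.

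Between genotypes without treatment, 3 of the 28 were called, a smaller share than the 23.6% of all genes called in this comparison. SIGA was higher in the mutant (0.70 ± 0.20, adjusted p = 0.0246), and TRX z (-0.56 ± 0.18, adjusted p = 0.0366) and CSP41A, a chloroplast RNA-binding protein with nuclease activity (-0.75 ± 0.14, adjusted p = 0.00208), were lower. The median of the list was 0.09. Under ABA 0 of the 28 were called by edgeR between genotypes, where only 1.79% of all genes were called, so a list of this size says little. CSP41A was the only gene of the list with a called interaction (0.85 ± 0.19, adjusted p = 0.0447), where 1.80% of all genes were called. ABA lowered CSP41A by a log2 fold change of -1.18 ± 0.14 in wild type (adjusted p = 2.11e-05), and it was not called with ABA in the mutant.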

How the data were processed

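The authors deposited 1 table of raw counts per gene, with 12 columns for the 3 biological replicates of each of 4 groups. Per the submitters' processing notes, the build was TAIR10 and the tools were Trim Galore 0.3.3 and edgeR; aligner and counter: not given in the sources used here. Per the labels' protocols, RNA was DNase-treated and a kit for stranded mRNA libraries was used.

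All rows passing filterByExpr (21322) were fitted with edgeR 4.0.16 (R 4.3.3): TMM scaling, 1 mean per group over all 12 libraries, quasi-likelihood test, Benjamini-Hochberg adjustment over all genes, call at an adjusted p under 0.05. Standard errors are the fold change over the root of F. The fit was tested on simulated data. P-values measure the spread between these replicates.

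The rows and gene lists were chosen with earlier results of these data known. Up to 6 called rows per genome, comparison and direction were named, plus described rows. Classes by gene symbol and levels per kilobase, which the rule for named rows also asked for, were not used, because the reference (TAIR10.1) pairs no organelle ID with a symbol. No sequence is shown for the same reason. DESeq2 1.42.0, other scalings, filters, fits of 2 groups, a replicate block and leaving out libraries were the alternatives. Same-numbered libraries were not treated as paired.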

Additional observations from a re-analysis of the deposited data

How the results depend on the processing

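The counts of called rows stayed within 1.5 times under other scalings, filters, tests, fits of only the 2 groups compared and the replicate block, except that DESeq2 called 2 chloroplast interactions against 0, and that without the low-count filter 5 mitochondrial rows were called with ABA in wild type against 3. With 1 row of each near-equal pair, chosen after seeing the data, 4 chloroplast rows were called with ABA in the mutant against 7. Leaving out 1 library gave 7 to 15 chloroplast calls with ABA in wild type, 1 to 14 with ABA in the mutant, 5 to 31 between untreated genotypes, 0 to 2 under ABA and 0 to 4 interactions. The mitochondrial counts were 1 to 5, 0 to 1, 2 to 5, 0 to 0 and 0 to 1 in the same order. Over all genes, leaving out 1 library gave 893 to 2225 higher calls and 1914 to 3443 lower ones between untreated genotypes. The causes were not tested.

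Leaving out 1 library, the mean chloroplast share ran from 0.0916% to 0.112% in untreated wild type, 0.0444% to 0.0474% in wild type under ABA, 0.0580% to 0.0699% in the untreated mutant and 0.0422% to 0.0528% in the mutant under ABA. The mitochondrial share ran from 0.00588% to 0.00736%, 0.00326% to 0.00404%, 0.00332% to 0.00435% and 0.00314% to 0.00350%. Without the rows with the most counts in untreated wild type, chosen after seeing the data, the chloroplast share was 0.0217%, 0.0319%, 0.0451% and 0.0397% in the 4 groups, and the mitochondrial share 0.00123%, 0.00166%, 0.00214% and 0.00224%. With 1 row per pair the chloroplast share was 0.0609%, 0.0381%, 0.0525% and 0.0421%.

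With the replicate number as a block, 9, 7, 19, 0 and 0 chloroplast rows were called in the 5 comparisons. The correlations of same-numbered libraries ran from -0.36 to 0.54 over 18 pairs, 6 of them above 0.1. Those of differently numbered libraries ran from -0.54 to 0.57 over 36 pairs, 13 of them above 0.1. No label says that equal numbers pair, so the numbers were not taken to pair samples. For single rows, 1056 values under an alternative stayed on the same side of the threshold, 97 lost a call and 9 gained one, and none of them changed direction while called. The correction for GC content and length and the share of protein-coding rows alone were not run, since 0 of the organelle IDs matched the annotation. Depth limits the mitochondrial genome most, with 498 to 1465 counts per library.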

Other observations

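The nuclear rows with IDs from AT2G07660 to AT2G07840, a stretch of chromosome 2 that contains a large insertion of mitochondrial DNA, numbered 145, of which 110 had counts. They summed to 94.8 to 115 CPM in untreated wild type, 73.2 to 96.9 in wild type under ABA, 110 to 128 in the untreated mutant and 80.9 to 99.2 in the mutant under ABA. Most of these counts lay in 2 rows, ABCC13 (AT2G07680) with 9412 and MCM5 (AT2G07690) with 8378.

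The organelle rows too low to test were summed by treatment as raw counts. The sums were not scaled to the library totals, so they do not compare levels. The 45 chloroplast rows had 475 counts over the 6 untreated libraries and 400 over the 6 ABA libraries, and the 129 mitochondrial rows had 872 and 935. Among them, ribosomal protein S4 of the mitochondrion (ATMG00290) had 68 counts in all and its noted nuclear match AT2G07734 had 69, equal in 11 of 12 libraries. ATMG00610, described as a putative membrane lipoprotein, had 43 counts and AT2G07719 had 45, equal in 10 of 12 libraries.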
